A study of Mus musculus with 8 samples.

Results

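Astrocytes take up transmitters, buffer ions and share metabolites through a small set of membrane proteins, and 9 of the genes that encode them are described here: the glutamate transporters Slc1a2 and Slc1a3, the GABA transporter Slc6a11, the amino acid exchangers Slc7a10 and Slc7a11, the sodium bicarbonate cotransporter Slc4a4, the water channel Aqp4 and the connexins Gja1 and Gjb6. They were chosen by name from the genes of 2 tables of counts, of which 17836 genes are in the first and 15769 in the second, and all 9 were found in both. The tables hold single cells of frontal isocortex from mice at postnatal day 7, sorted by flow cytometry either for a Drd1a-tdTomato reporter (an artificial chromosome transgene, D1Tom below) or for golli-τ-eGFP (GTE below). Controls were Foxp2 flox/flox without Cre, and the conditional knockouts (cKO) were Emx1-Cre; Foxp2 flox/flox, so both genotypes carry the floxed alleles and a reporter, and Emx1-Cre acts in the lineage of the dorsal telencephalon, which includes cortical astrocytes. Each sort had 2 control and 2 cKO libraries, 8 in all, on a background backcrossed to C57BL/6J, with littermate controls. All D1Tom mice were female except cKO 2, and all GTE mice were male except cKO 2. The labels do not say whether 1 library holds 1 animal, so p-values measure the spread between these libraries.

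Cortical astrocytes arise from radial glia around birth and mature over the first postnatal weeks. Slc1a3 is known to be present already in radial glia and young astrocytes, whereas Slc1a2 rises as synapses form, and Gjb6 is known as a late connexin. Aqp4 is known to be concentrated in the endfeet that astrocytes place on vessels and on the pial surface, where Gfap, an intermediate filament, is also high.

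The D1Tom libraries held 3206, 2395, 2812 and 3081 cells (control 1, control 2, cKO 1, cKO 2, the order used throughout) with 27323298 to 36379194 counts. The GTE libraries held 3948, 3071, 1440 and 2923 cells with 4878370 to 6092396 counts and are much shallower per cell. In several libraries a value of 2 was more frequent than a value of 1, so 1 count is not 1 molecule, and no counting interval is given for a sum of counts. Any pair of libraries shared at most 0.925% of the smaller library's cell barcodes. D1Tom control 1 and cKO 1 were prepared on 1 day and control 2 and cKO 2 on another, per the labels. The labels of the GTE libraries repeat the D1Tom wording on days, with sexes that are not those of the GTE mice, and the deposited cell table gives each GTE library a batch name of its own, so GTE days are taken as unknown. Foxp2, the targeted gene, stood at 36.3, 39.1, 26.5 and 19.4 CPM (counts scaled to a common total per library or cell class) over all D1Tom cells and at 222, 173, 55.8 and 53.9 CPM in layer 6 corticothalamic neuron-like cells. In D1Tom astrocyte-like cells, where the genotypes are compared below, it stood at 13.5, 37.5, 27.4 and 13.0 CPM, with overlap and with cKO 2.03 and 0.347 times control on the 2 days, so a lower level in cKO was not seen in these cells. In GTE astrocyte-like cells it stood at 18.4, 14.4, 12.9 and 5.76 CPM, from 5 to 20 counts. Whether the counted 3' ends lie in the deleted part is not given in the sources used here.

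Cells were clustered without the 9 genes, and clusters were named from fixed marker lists. In D1Tom 3 clusters were astrocyte-like, with 12 to 14 of 14 measured astrocyte markers at least 2-fold above the median cluster, and together they held 870, 529, 668 and 885 cells. In GTE 2 clusters, written 4 and 7, were astrocyte-like and held 332, 352, 530 and 272 cells. Astrocyte-like cells made up 22.1% to 28.7% of the D1Tom libraries. In GTE they made up 8.41%, 11.5%, 36.8% and 9.31%, so GTE cKO 1 stands apart in its makeup. The D1Tom clusters followed the preparation day in part: cluster 0 took 652 and 391 cells from the first day and 133 and 198 from the second, cluster 3 took 45 and 162 against 244 and 540, and cluster 9 took 173 and 115 against 152 and 147. Immediate early genes that dissociation is known to raise also differed by library: Fos stood at 1804, 187, 186 and 109 CPM in D1Tom astrocyte-like cells.

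Among the glutamate transporters, Slc1a3, which encodes the transporter known as GLAST, stood at 4210, 2862, 3926 and 2976 CPM in D1Tom astrocyte-like cells. Slc1a2, which encodes the transporter that takes up most glutamate in the adult forebrain, stood at 1858, 2156, 2140 and 2074 CPM. Slc1a3 was thus higher in both libraries of the first day than in both of the second, and Slc1a2 was nearly level across the 4. In GTE, Slc1a3 stood at 2375, 4486, 4989 and 4410 CPM and Slc1a2 at 2186, 5351, 4333 and 3478 CPM, with control 1 the lowest library for both.

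Slc6a11 encodes a GABA transporter of astrocyte processes, and its D1Tom levels were 503, 365, 683 and 430 CPM. Slc7a10, an exchanger of small neutral amino acids such as serine and glycine, stood at 306, 84.7, 193 and 130 CPM. It varied most by preparation day among these carriers, with both libraries of the first day above both of the second. Slc7a11, the light chain of the cystine and glutamate exchanger, stood at 320, 187, 362 and 230 CPM and showed the same order of days. In GTE these 3 genes ranged from 516 to 992 CPM (Slc6a11), from 192 to 405 CPM (Slc7a10) and from 307 to 921 CPM (Slc7a11).

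Slc4a4, which moves bicarbonate with sodium and so takes part in pH control, stood at 586, 641, 698 and 590 CPM in D1Tom. Aqp4 stood at 1218, 1343, 1331 and 1032 CPM. Gja1, the main gap junction gene of astrocytes, stood at 589, 476, 613 and 556 CPM. Slc4a4 and Aqp4 showed no order of days, whereas Gja1 was higher in both libraries of the first day. Gjb6, the other connexin of the set, was near the floor at 35.2, 8.09, 17.5 and 15.1 CPM. In GTE it stood at 68.5, 78.2, 127 and 69.2 CPM. The 2 sorts were counted and tabulated separately, so levels are not compared across them.

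**Figure D1:**
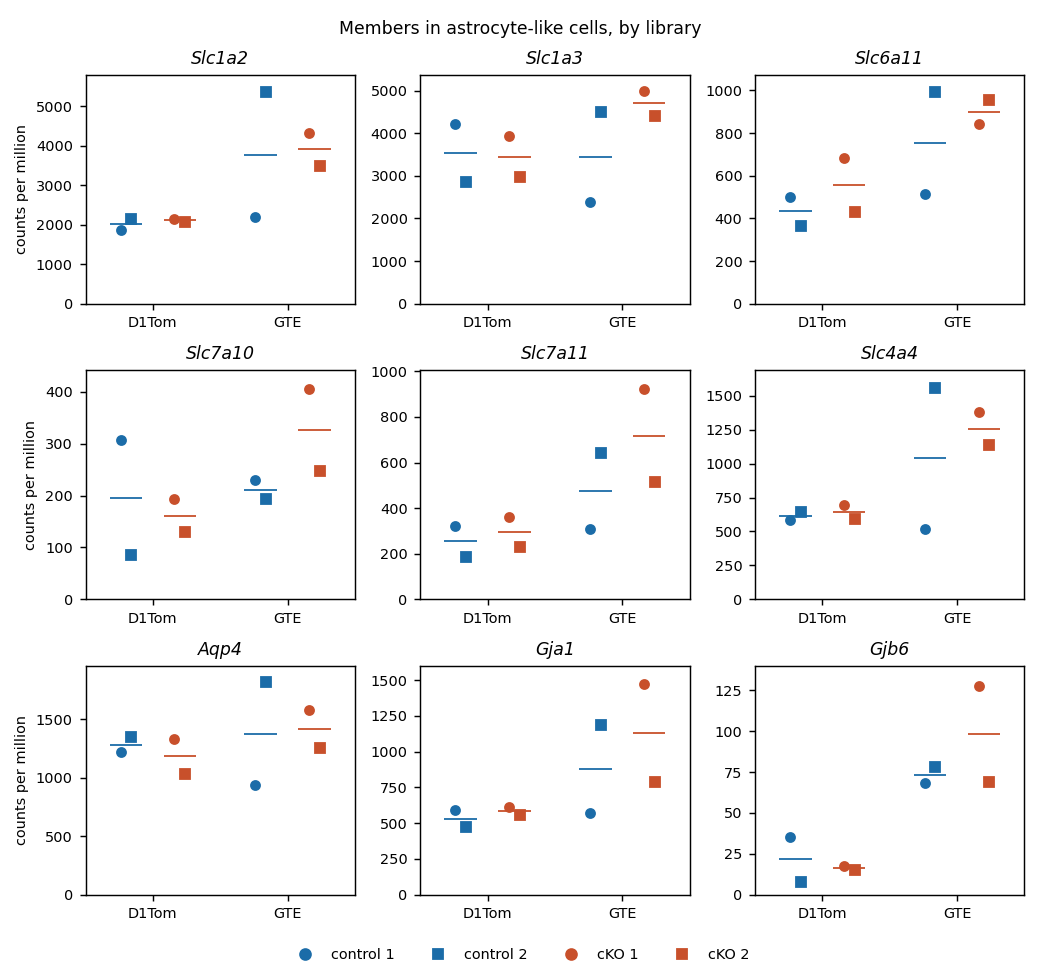
CPM (y axis, from 0) of each member in astrocyte-like cells, by sort (x axis), with 1 point per library and a bar at the mean of 2 libraries. Blue is control, orange is cKO, circles are replicate 1 and squares replicate 2. For every member in D1Tom the 2 genotypes overlap, and in GTE control 1 is the lowest library for Slc1a2, Slc1a3, Slc4a4, Aqp4 and Gja1.

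Single astrocyte-like cells of D1Tom carried several members at once. With every D1Tom cell thinned to 2000 counts, 2951 of the astrocyte-like cells could be used and 1 was too shallow. A median of 5 of the 9 genes was counted per cell, and 41.5% of the cells had 6 or more. A microglia-like cell, which should lack the set, had a median of 1 at the same depth (84 cells, 0 to 3 by library), and an oligodendrocyte precursor-like cell a median of 3. The glutamate transporters were counted in nearly every cell, Slc1a3 in 98.0% to 99.4% and Slc1a2 in 93.8% to 96.8% by library. Intermediate shares were found for Aqp4 (64.7% to 72.8%), Slc4a4 (62.9% to 67.9%), Gja1 (56.5% to 64.2%) and Slc6a11 (45.4% to 67.2%). Lower shares were found for Slc7a11 (27.0% to 43.2%), Slc7a10 (15.7% to 41.0%) and Gjb6 (1.51% to 6.67%). Microglia-like cells of D1Tom, whose median depth before thinning was 10930 counts against 7811.5 in astrocyte-like cells, gave 46.4% for Slc1a3 and for Slc1a2, 20.2% for Aqp4, 3.57% for Slc7a10 and 1.19% for Gjb6. The Gjb6 share of 1.51% in D1Tom control 2 lies close to the share in microglia-like cells. Without thinning the D1Tom shares were larger, for example 67.1% for Slc7a11 and 9.99% for Gjb6.

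GTE cells were thinned to 500 counts. At that depth an astrocyte-like cell had a median of 3 members (1 to 4 by library), 8.14% had 6 or more, and a microglia-like cell had a median of 0. The shares were lower as well: 35.2% to 91.3% for Slc1a3, 40.4% to 84.1% for Slc1a2, 23.5% to 48.9% for Aqp4 and 1.81% to 6.79% for Gjb6. GTE microglia-like cells gave 5.63% for Slc1a3, 22.5% for Slc1a2 and 4.93% for Aqp4, from 142 cells with a median depth of 2102 counts against 2290 in astrocyte-like cells. Slc7a10, Slc7a11 and Gjb6 had no count in those 142 cells.

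The 3 D1Tom astrocyte-like clusters carried different mixtures of the set. Cluster 9, led by Cd74, Gfap and MHC class II genes, had the highest Aqp4, at 2225, 2654, 3303 and 2775 CPM, against 840, 709, 751 and 640 CPM in cluster 0. Slc7a10 had the opposite pattern, at 22.8, 21.3, 19.6 and 29.8 CPM in cluster 9 against 434, 170, 346 and 259 CPM in cluster 0. In both genes the 4 libraries of cluster 9 lay wholly apart from the 4 of cluster 0.

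Slc6a11 stood at 143, 183, 225 and 248 CPM in cluster 9 and at 519 to 897 CPM in cluster 0. Slc7a11 stood at 98.1 to 119 CPM in cluster 9 and at 289 to 548 CPM in cluster 0. Slc1a3 stood at 2186 to 2530 CPM in cluster 9 and at 4025 to 5317 CPM in cluster 0. For all 3 the ranges of the clusters did not overlap, whereas those of Slc1a2 (1720 to 2790 and 1949 to 2392 CPM) and Slc4a4 (479 to 805 and 640 to 781 CPM) did. Cluster 3, the cluster mostly of the second day, had Aqp4 at 509 to 656 CPM and Slc7a10 at 93.2 to 251 CPM. As a percent of the level over all astrocyte-like cells of the same library, Gja1 averaged 93.5% in cluster 9 and 116% in cluster 0. Gjb6, with few counts, averaged 33.3% and 145%. These are descriptions: the members took no part in the clustering, but the clusters come from the same cells. How many of all genes lay apart between clusters 9 and 0 was not counted.

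**Figure D2:**
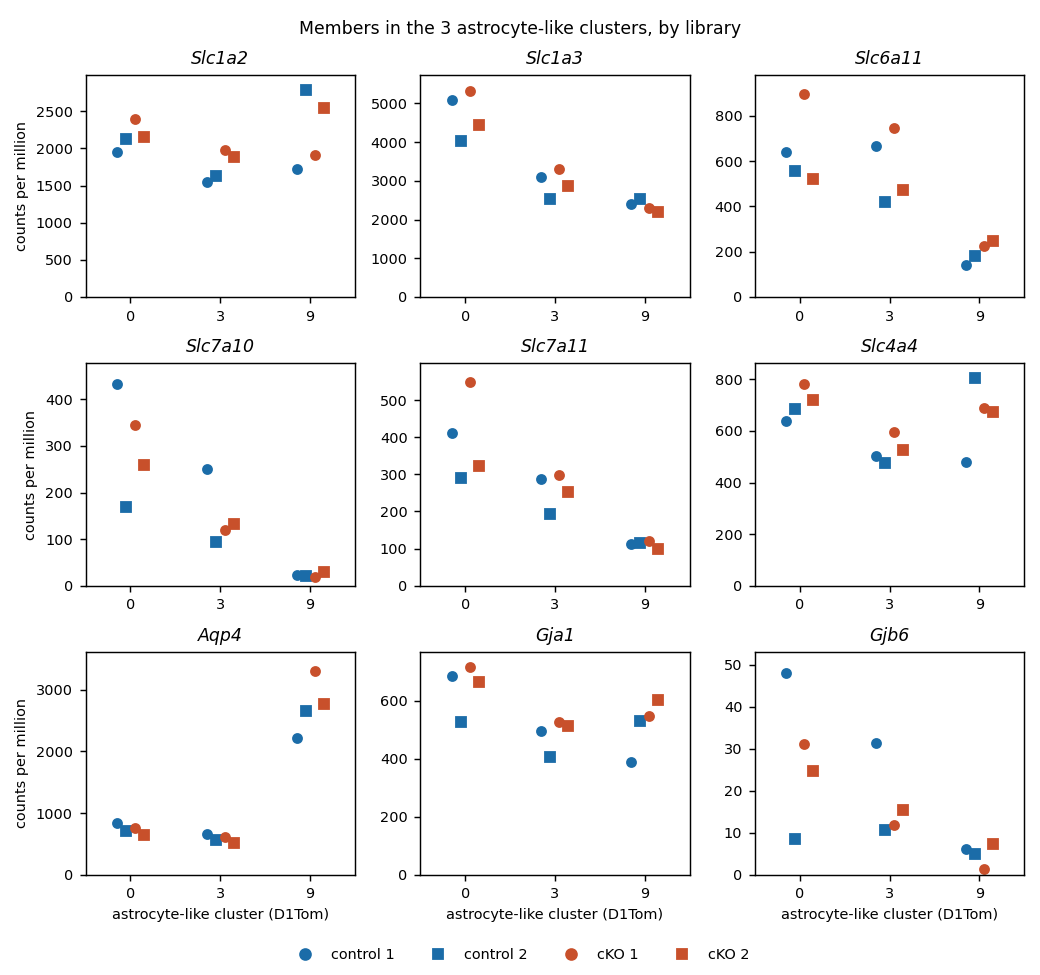
CPM (y axis, from 0) of each member in astrocyte-like clusters 0, 3 and 9 of D1Tom (x axis), with 1 point per library in the colours and shapes of the key. Aqp4 is highest in cluster 9 (2225 to 3303 CPM), where Slc7a10 is lowest (19.6 to 29.8 CPM).

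Gfap gave a split of the same cells that can be tested within each library. After thinning to 2000 counts, a Gfap count was found in 181 of 870, 163 of 529, 141 of 667 and 234 of 885 astrocyte-like cells, or 20.8%, 30.8%, 21.1% and 26.4%. Gfap itself defined the split and is no result. Of the 719 cells with a Gfap count, 68.2% lay in cluster 9, against 4.35% of the 2232 cells without one. Counts were summed per library and class, and edgeR's quasi-likelihood test compared the classes with the library as a block.

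The cells with a Gfap count had more Aqp4 and less of 3 amino acid and GABA carriers. Aqp4 stood at 2066, 2387, 2617 and 1889 CPM in cells with a Gfap count and at 840, 686, 713 and 502 CPM in cells without. It was higher in 4 of 4 libraries, and the 2 sets of values did not overlap. The log2 fold change was 1.74 ± 0.15 (SE), adjusted p = 1.24e-10 by edgeR.

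Slc7a10 stood at 108, 12.3, 88.7 and 100 CPM with a Gfap count and at 425, 128, 304 and 188 CPM without, again with no overlap. Its log2 fold change was -1.67 ± 0.19, adjusted p = 1.29e-07 by edgeR. Slc7a11 stood at 238, 89.0, 209 and 156 CPM with and at 374, 227, 516 and 286 CPM without a Gfap count. It was lower in 4 of 4 libraries although the ranges overlap across libraries, at -0.97 ± 0.15 on the log2 scale, adjusted p = 1.32e-05 by edgeR. Slc6a11 stood at 276, 221, 422 and 314 CPM against 609, 402, 859 and 471 CPM, a log2 fold change of -0.87 ± 0.13 and lower in 4 of 4 libraries, adjusted p = 1.63e-05 by edgeR.

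The glutamate transporters, the bicarbonate cotransporter and Gja1 did not pass the test. Slc1a3 stood at 3232, 2564, 3128 and 2727 CPM with and at 5023, 3074, 4753 and 3218 CPM without a Gfap count, lower in 4 of 4 libraries, at -0.41 ± 0.16 on the log2 scale, adjusted p = 0.0902 by edgeR. DESeq2 gave -0.42, adjusted p = 0.0158, for the same gene, where it called 4.46% of genes, and edgeR without the filter on low counts gave -0.44, adjusted p = 0.0350. Slc1a2 (0.12 ± 0.15), Slc4a4 (0.07 ± 0.13) and Gja1 (0.00 ± 0.13) had intervals that reach from -0.25 to 0.40 at the widest. So 1 of the 8 members tested rose and 3 fell, where 10.8% of all 7619 genes tested were called in either direction. The median log2 change was -0.21 over the members tested and -0.02 over all genes. Gjb6 did not pass the filter on low counts. It stood at 11.05, 0, 3.55 and 10.7 CPM with and at 43.5, 10.9, 30.4 and 20.7 CPM without a Gfap count, and without the filter its log2 fold change was -1.89, adjusted p = 0.000445 by edgeR, where 6.06% of genes were called.

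The split rests largely on cluster 9. Without that cluster only Aqp4 was called, at 0.54 on the log2 scale, adjusted p = 0.00555 by edgeR, where 0.06% of genes were called; Slc7a10 stood at -0.33, Slc7a11 at -0.06 and Slc6a11 at -0.03. Within cluster 9 alone Aqp4 (0.98), Gja1 (1.05) and Slc1a2 (0.46) were called higher, where 0.989% of genes were called. That fit is thin: the class without a Gfap count held 44, 19, 17 and 17 cells. It tested 2528 genes, 7 of them members. Without the library block only Aqp4 was called (1 of 8, where 2.34% of genes were called), and the adjusted p of Slc7a10 was 0.0605.

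Other genes of astrocytes moved with the split in both directions. Of 23 tested genes on a list of other astrocyte transport genes, 3 rose, among them Slc16a1, a monocarboxylate carrier (2.05 on the log2 scale), and Slc25a18, a mitochondrial glutamate carrier (0.83), 2 fell, among them Cldn10, and 18 were not called, with a median of 0.05. Of 19 tested mature astrocyte genes other than Gfap, 5 rose, among them Ntsr2 (1.37), and 3 fell, among them Mfge8 (-0.87). Of 14 tested immature and dividing glia genes, 4 rose, among them Vim (1.29), and 4 fell, among them Igfbp2 (-0.83), with a median of 0.11. Neither the mature nor the immature list moved in a single direction.

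Markers of neurons moved with the split as well. Of 11 tested neuronal genes, 9 fell and none rose, with Stmn2 at -0.91, Neurod6 at -1.07 and Tubb3 at -0.81 on the log2 scale. The summed level of the 14 measured neuronal genes was 434 to 1397 CPM in cells with a Gfap count and 688 to 2674 CPM in cells without, and none of the 14 was at 0 throughout. The part of this difference in the fall of Slc6a11, Slc7a10 and Slc7a11 was not tested. Of 6 tested dissociation genes 1 rose, Junb, at 1.06. The summed level of microglial markers was at most 21.4 CPM in either class.

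**Figure D3:**
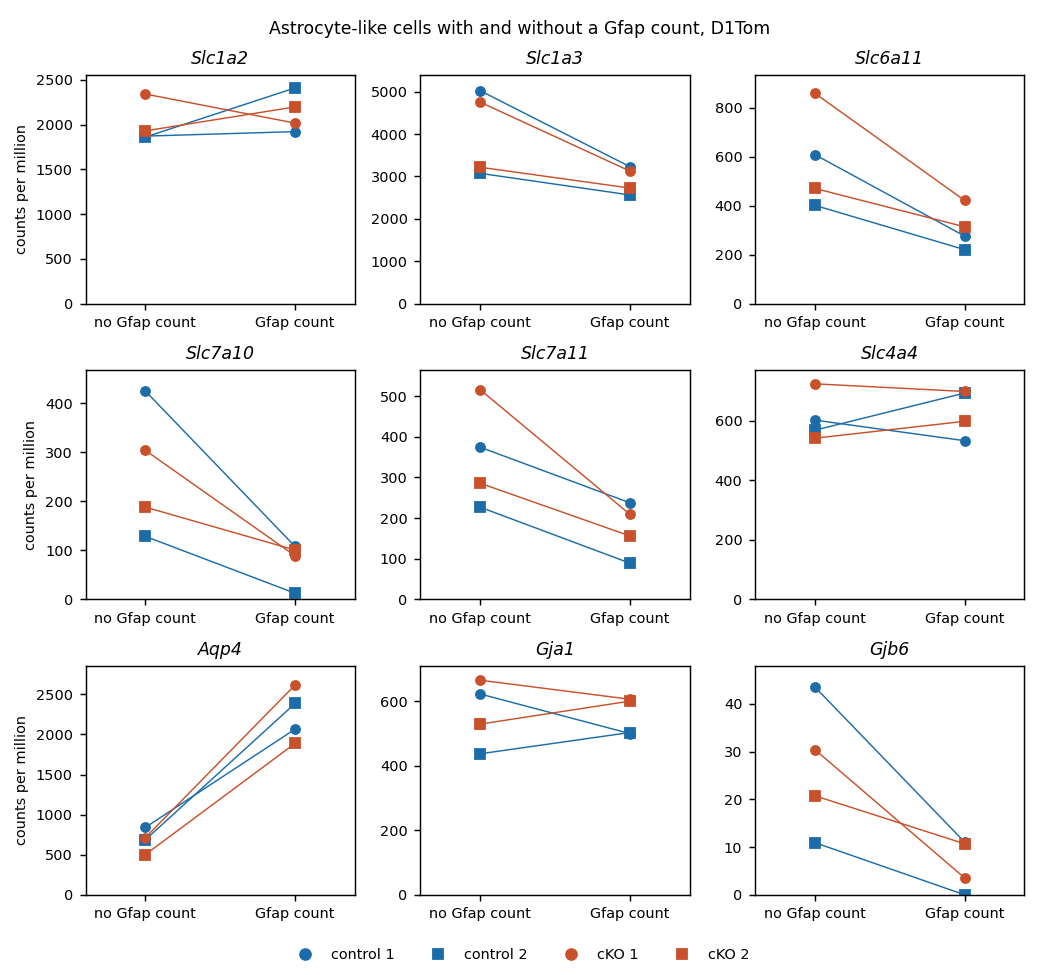
CPM (y axis, from 0) of each member in astrocyte-like D1Tom cells without and with a Gfap count (x axis) after thinning, with a line joining the 2 classes of each library. All 4 lines go up for Aqp4 and down for Slc1a3, Slc6a11, Slc7a10, Slc7a11 and Gjb6, and they cross or lie flat for Slc1a2, Slc4a4 and Gja1.

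Because the 3 carriers fell together, their promoters are shown with that of Slc1a3, the first 250 bases before and 50 after the start as given by RefSeq for GRCm38.p6. Capitals mark any match, on either strand, to ACAAT (a core bound by SOX factors), TTGGC (an arm of the nuclear factor I site) or TTCNNNGAA (bound by STAT factors), in which N is any base; the motifs do not overlap each other here. Windows were read for 8 of the 9 members, and Aqp4 was not among them. Slc6a11 lies at chr6:114130991-114131290 (plus strand), Slc7a10 at chr7:35186135-35186434 (plus), Slc7a11 at chr3:50443564-50443863 (minus) and Slc1a3 at chr15:8710758-8711057 (minus).
Slc6a11: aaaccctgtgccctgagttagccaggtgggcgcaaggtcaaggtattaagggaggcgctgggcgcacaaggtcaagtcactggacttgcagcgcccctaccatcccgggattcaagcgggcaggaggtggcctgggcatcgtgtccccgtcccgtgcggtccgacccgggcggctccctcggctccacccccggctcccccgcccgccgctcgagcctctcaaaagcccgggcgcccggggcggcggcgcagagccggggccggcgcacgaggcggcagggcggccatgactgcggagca
Slc7a10: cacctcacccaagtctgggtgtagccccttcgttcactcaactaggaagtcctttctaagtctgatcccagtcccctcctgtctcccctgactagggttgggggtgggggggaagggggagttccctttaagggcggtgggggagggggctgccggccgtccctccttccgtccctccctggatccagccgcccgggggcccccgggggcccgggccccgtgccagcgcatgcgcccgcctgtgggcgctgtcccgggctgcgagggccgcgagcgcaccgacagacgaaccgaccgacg
Slc7a11: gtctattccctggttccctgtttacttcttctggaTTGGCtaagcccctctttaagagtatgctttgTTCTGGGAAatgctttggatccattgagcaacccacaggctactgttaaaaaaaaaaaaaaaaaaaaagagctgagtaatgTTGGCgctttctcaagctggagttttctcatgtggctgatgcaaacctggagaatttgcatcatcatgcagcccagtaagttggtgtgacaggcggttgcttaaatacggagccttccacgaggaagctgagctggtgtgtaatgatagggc
Slc1a3: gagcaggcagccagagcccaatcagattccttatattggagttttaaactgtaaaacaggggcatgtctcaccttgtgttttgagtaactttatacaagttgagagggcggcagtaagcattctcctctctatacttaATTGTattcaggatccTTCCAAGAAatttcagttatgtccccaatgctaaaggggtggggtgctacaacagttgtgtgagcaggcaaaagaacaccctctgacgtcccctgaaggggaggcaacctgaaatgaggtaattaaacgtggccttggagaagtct

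The Slc6a11 and Slc7a10 windows hold 72.3% and 70.7% G and C and none of the 3 motifs. The Slc7a11 window holds 44.7% G and C, 2 matches to TTGGC and 1 to TTCNNNGAA. The Slc1a3 window holds 1 match to ACAAT and 1 to TTCNNNGAA. Of all 32851 promoter windows of this length, 31.0% hold ACAAT, 46.7% hold TTGGC and 8.30% hold TTCNNNGAA, so the 3 carriers that fell share none of these letters. A match is a description of the sequence only.

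Astrocyte-like cells with dividing markers were set against those without in the same way. At 2000 counts, 12, 35, 17 and 23 cells had 2 or more of the dividing markers and 710, 409, 557 and 716 had none. None of the 8 members tested was called by edgeR with the library as a block, where 0.168% of 6539 genes were called. All 8 log2 fold changes were below 0, with a median of -0.27 against -0.16 over all genes. Slc7a11 stood lowest, at 583, 157, 176 and 65.2 CPM in dividing cells against 341, 196, 470 and 259 CPM, a log2 fold change of -0.71 ± 0.27, adjusted p = 0.573 by edgeR. It was higher in dividing cells of control 1 and lower in the other 3 libraries, and the change was -1.17 without control 1, -0.42 without cKO 1 and -0.45 without cKO 2. Slc4a4 followed at -0.37 ± 0.18, and 2 members had an unadjusted p under 0.05 by edgeR, as had 368 of the 6539 genes. Slc1a3 was called only when no filter on low counts was applied, at -0.37, adjusted p = 0.0375 by edgeR, where 0.698% of genes were called. Of 20 tested mature astrocyte genes none was called, and Aldoc, a glycolytic enzyme, came nearest at -0.65, adjusted p = 0.0616. Of 22 tested other transport genes none was called, with Ttyh1 at -0.48. Of 18 tested immature and dividing glia genes, 6 rose. All 6 are among the dividing markers that defined the split, so their rise is no result. No gene of the neuronal or dissociation lists was called.

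Outside astrocytes all 9 genes were still read, at levels that any share or sum has to be read against. Expressed as a percent of the astrocyte-like level of the same library, Slc1a3 averaged 5.80% in upper layer neuron-like cells, 13.5% in layer 6 corticothalamic neuron-like cells, 26.1% in microglia-like cells and 42.7% in oligodendrocyte precursor-like cells of D1Tom. These levels differed by library. In microglia-like cells Slc1a3 stood at 224, 1003, 1332 and 898 CPM, lowest in control 1.

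The percent differed between members within a cell type; Gjb6 is left aside for its few counts. Slc1a2 averaged 46.7% of its astrocyte-like level in layer 6 corticothalamic neuron-like cells (29.9% to 66.2% by library), where Slc1a3 averaged 13.5% (3.51% to 22.2%) and Slc6a11 31.7% (16.5% to 46.8%). In CPM Slc1a2 stood there at 591, 1267, 640 and 1372, and Slc1a3 at 148, 553, 344 and 662. The ratio of Slc1a2 to Slc1a3 counts was 1.86 to 4.0 in these neurons, 0.851 to 1.04 in microglia-like cells and 0.441 to 0.753 in astrocyte-like cells. These ranges over 4 libraries do not overlap. Other neurons had raised ratios too: interneuron-like cells gave 1.15 to 2.48, which overlaps the layer 6 range, and layer 5 pyramidal tract neuron-like cells 1.11 to 1.43. In GTE the layer 6 corticothalamic neuron-like cells gave 2.93 and 11.3 in the 2 libraries with at least 10 of them. GTE microglia-like cells gave 2.18 to 4.20, so there the ratio does not separate these neurons from microglia-like cells.

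Slc6a11 averaged 33.5% of its astrocyte-like level in upper layer neuron-like cells (26.8% to 38.3%), where the other members averaged 3.10% to 8.61%. The percent of Slc6a11 was not particular to these cells. It averaged 30.4% in microglia-like, 31.7% in layer 6 corticothalamic neuron-like and 55.9% in oligodendrocyte precursor-like cells, but 9.78% in endothelial-like cells. In upper layer neuron-like cells Slc6a11 stood at 173, 126, 183 and 165 CPM, nearly level across libraries, while Slc1a3 stood at 53.9, 125, 86.8 and 457 CPM. At 2000 counts, 14.8% to 28.0% of the upper layer neuron-like cells had a Slc6a11 count, against 8.0% of endothelial-like cells, whose median depth before thinning was 18777 counts against 20964. Gja1 averaged 24.9% of its astrocyte-like level in endothelial-like cells (14.4% to 35.6%), where Slc1a3 averaged 7.58% and Aqp4 5.44%. It stood there at 111, 146, 88.5 and 198 CPM. Gja1 was counted in 27.3% of these 275 cells at 2000 counts, against 22.6% of microglia-like cells. In Cajal-Retzius-like cells Slc7a10 averaged 52.4% of its astrocyte-like level (35.1% to 87.2%) and Slc1a3 21.6% (2.2% to 41.8%), with the other 6 members at 17.7% to 33.8% and ranges over libraries that overlap. Oligodendrocyte precursor-like cells read 22.4% for Aqp4 and 35.4% to 55.9% for the 7 other members outside Gjb6. This class joins unlike clusters: Slc1a3 averaged 17.3% and Gja1 10.6% in cluster 2 (1064 cells), against 65.2% and 56.8% in cluster 5, which took 44 and 84 cells from the first day and 289 and 358 from the second. Whether these counts come from the cells themselves or from free RNA or attached fragments was not tested.

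**Figure D4:**
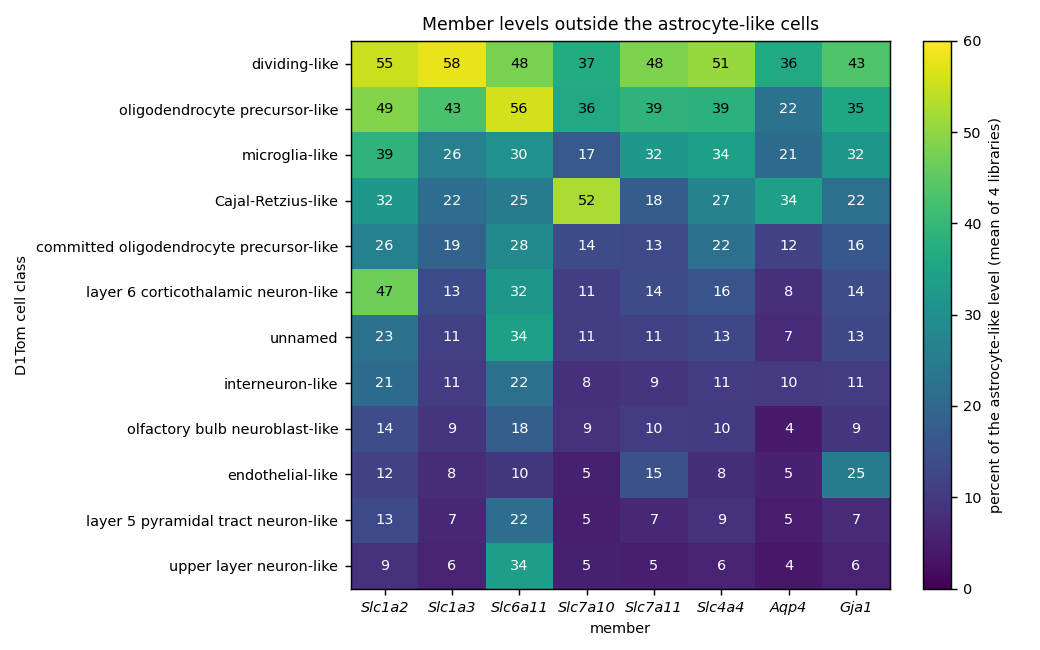
Level of 8 members (x axis) in each D1Tom cell class other than astrocyte-like (y axis), as a percent of the astrocyte-like level of the same library and averaged over 4 libraries; numbers repeat the colour. Slc1a2 in layer 6 corticothalamic neuron-like cells (46.7%), Slc6a11 in upper layer neuron-like cells (33.5%) and Gja1 in endothelial-like cells (24.9%) exceed Slc1a3 in the same row. Other entries do so too, such as Slc6a11 in microglia-like cells (30.4% against 26.1%).

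Loss of Foxp2 in the Emx1 lineage was compared with control in each sort, the question set by the design. In D1Tom astrocyte-like cells none of the 9 members was called by edgeR, where 0% of 12179 genes were called (189 at an unadjusted p below 0.05). No member was among the 4 genes, or 0.0328%, that DESeq2 called. The values of the 2 genotypes overlapped for all 9. The log2 fold changes of cKO against control lay between -0.37 ± 0.59 (Gjb6) and 0.38 ± 0.29 (Slc6a11), all with adjusted p = 1.00. Their median was 0.09, against 0.01 over all genes. For Slc1a3 the change was -0.01, with an approximate 95% interval from -0.71 to 0.69, and for Slc1a2 it was 0.09, from -0.52 to 0.71. For Slc7a10 it was -0.24, from -1.27 to 0.80, one of the wider intervals of the set.

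Within preparation days the sign of Slc7a10 and Gjb6 differed. The cKO level of Slc7a10 was 0.629 times that of control on the first day and 1.53 times on the second, and that of Gjb6 was 0.497 times and 1.87 times. For Slc6a11 the ratios were 1.36 and 1.18, for Slc7a11 1.13 and 1.23, and for Gja1 1.04 and 1.17, so these 3 members were higher in cKO on both days. Slc1a2, Slc4a4 and Aqp4 were higher in cKO on the first day only, and Slc1a3 (0.932 and 1.04) on the second only. With the replicate number, which in D1Tom is the preparation day, as a block, still no member was called, where 0.0985% of genes were.

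The other lists gave no call in D1Tom astrocyte-like cells either, for 25 other transport genes (Slc2a1 nearest, at -0.92), 20 mature genes (Pla2g7, at -1.19), 18 immature genes (Vim, at -0.53), 14 neuronal genes (Slc32a1, at 1.48) or 7 dissociation genes (Junb, at -2.97). The summed level of the dissociation genes was 452 to 3794 CPM in control and 284 to 457 CPM in cKO. That of the neuronal genes was 679 to 2067 CPM in control and 1424 to 2133 CPM in cKO. Their part in the members' values was not tested.

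In GTE astrocyte-like cells, too, no member was called, where 0% of 8531 genes were called by edgeR or DESeq2 (234 at an unadjusted p below 0.05 by edgeR). The class sat in different clusters by library: cluster 4 held 270, 124, 517 and 136 of its cells and cluster 7 held 62, 228, 13 and 136. Slc1a3 stood at 915, 2715, 4984 and 1230 CPM in cluster 4 and at 3880, 4862, 5110 and 5170 CPM in cluster 7, and Slc7a11 at 26.3, 213, 910 and 102 CPM against 597, 730, 1169 and 611 CPM. The part of this makeup in the genotype values was not tested beyond leaving out cluster 7, where no member was called. The log2 fold changes over the class lay between -0.12 ± 0.67 (Aqp4) and 0.43 ± 0.59 (Slc7a11), with adjusted p = 1.00. Only Slc7a10 had values that did not overlap, with 230 and 192 CPM in the controls against 405 and 248 CPM in the cKO libraries. The share of all genes without overlap in these cells was not counted, so this is a description only. No gene of the 5 lists was called. The difference between the sorts in the genotype effect was tested for all 9 members and none was called, where 0% of 11948 genes were called by edgeR or DESeq2 (538 at an unadjusted p below 0.05 by edgeR).

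**Figure D5:**
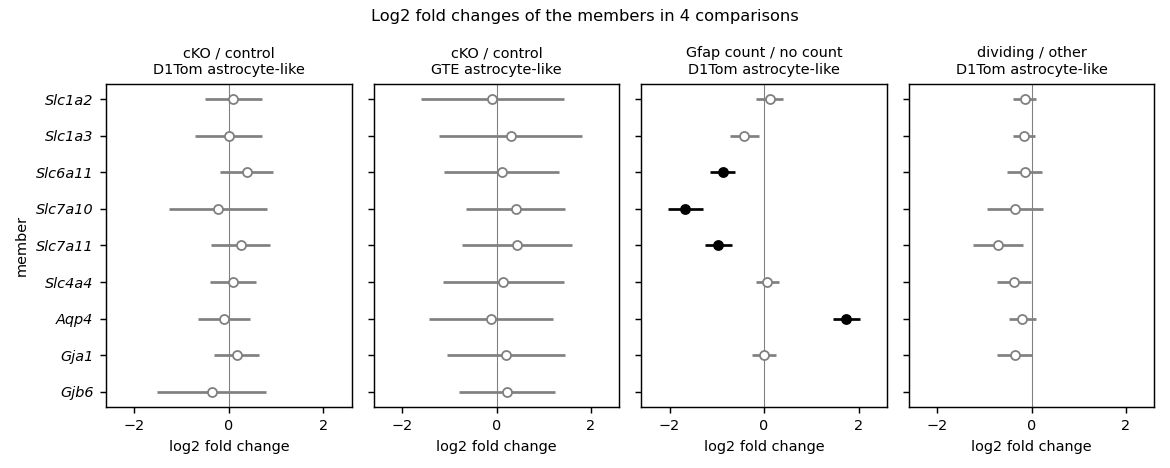
Log2 fold change (x axis) of each member (y axis) in 4 comparisons. Bars are approximate 95% intervals, from an SE derived from edgeR's F statistic and a normal distribution. Filled points have an adjusted p under 0.05, which only Aqp4, Slc6a11, Slc7a10 and Slc7a11 reach, all in the Gfap split; Gjb6 is absent where it did not pass the filter on low counts.

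Summed over all D1Tom cells, all 9 members had a log2 fold change above 0, with a median of 0.42 against -0.01 over all genes, and none was called, where 0% of 14508 genes were called (320 at an unadjusted p below 0.05 by edgeR). Of the 9, 5 did not overlap between genotypes: Slc1a3 (1168 and 1013 CPM in control, 1265 and 1496 CPM in cKO), Slc6a11 (205 and 198, 259 and 255), Slc7a11 (83.8 and 69.5, 108 and 115), Aqp4 (315 and 361, 366 and 427) and Gja1 (156 and 176, 189 and 270). How many of all genes had no overlap was not counted, so the 5 are a description only. The size of the members' log2 fold changes rested on the cKO libraries: the median was 0.14, with 7 of 9 above 0, without cKO 2, and 0.63 without cKO 1. Without control 2 it was 0.46, with 7 of 9 above 0. Such a sum holds the share of every cell class and the level within each. Astrocyte-like cells made up 27.1%, 22.1%, 23.8% and 28.7% of the libraries, with overlap between genotypes. The median change of the members within them was 0.09. Oligodendrocyte precursor-like cells numbered 383, 454, 343 and 659, and upper layer neuron-like cells 190, 185, 50 and 27. Over 7 other cell types, 45 of 58 pairs of a member and a type were above 0, as described below. The part of each class in the sum was not tested. Over all GTE cells no member was called, where 0.0332% of 12042 genes were called.

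Outside astrocytes, 7 D1Tom cell types had at least 30 cells in each library. Of 58 pairs of a member and a type, 45 were above 0 and none was called, where edgeR called 0.00684% and DESeq2 0.0643% of the genes tested over the 7 types. With the preparation day as a block, 8 pairs were called higher in cKO and 1 lower, where 1.06% of genes were called. The 8 were Slc1a2, Slc1a3, Aqp4 and Gja1 in Cajal-Retzius-like cells (where 0.6% of genes were called), Slc1a3, Slc4a4 and Gja1 in layer 6 corticothalamic neuron-like cells (0.635%) and Slc1a3 in olfactory bulb neuroblast-like cells (1.5%). The lower pair was Slc7a10 in dividing-like cells. The direction rested on single libraries: without control 1, the library with the lowest Slc1a3 in microglia-like cells, 20 of 58 pairs were above 0 and none was called (0.144% of genes called). Without control 2, 10 pairs were called higher and 1 lower (0.589%). Without cKO 1, 7 were called higher (0.562%), and without cKO 2, 11 of 58 pairs were above 0 and 2 were called lower (0.135%).

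Dividing-like cells, which are 1 of these 7 types and form clusters of their own, had the members mostly below 0; their difference from the other types was not tested. In them 8 of the 9 members were below 0 in cKO, with a median log2 change of -0.28 against 0.00 over all genes. Values of 7 members did not overlap, all lower in cKO. How many of all genes had no overlap there was not counted, so the 7 are a description only. None of the 9 members was called, where 0.0453% of genes were called by edgeR. Slc1a3 stood there at 2405, 2042, 1747 and 1746 CPM, and Aqp4 at 535, 470, 430 and 358 CPM. Slc7a10 stood furthest apart, at 82.6, 64.8, 33.1 and 35.3 CPM from 184, 102, 78 and 76 counts. Its cKO level was 0.401 and 0.544 times that of control on the 2 days. The log2 fold change was -1.03 ± 0.24, adjusted p = 0.250 by edgeR, and -1.04, adjusted p = 5.73e-05, with the day as a block, where 4.38% of genes were called. Without the filter on low counts its adjusted p was 0.0252, where 0.77% of genes were called (0.237% over the 7 types). Mature astrocyte genes had a median of -0.48 in the same cells, with none of 20 called and 9 at an unadjusted p below 0.05. Over all 11029 genes tested in these cells, 700 were below 0.05 by edgeR. The dissociation genes had a median of -2.38 there, with none of 7 called. The part of these genes in the members' values was not tested. In GTE dividing-like cells Slc7a10 stood at 12.6, 29.2, 21.3 and 64.3 CPM from 2, 3, 10 and 20 counts, with overlap.

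Across the 21 D1Tom clusters, genes whose mean log2(CPM + 1) followed a member most closely were ranked by Pearson's r as a description; the clusters share libraries, depth and background. Slc1a3 followed Plpp3 (0.98), a lipid phosphatase, and Slc4a4 (0.96). Slc4a4 followed Dio2 (0.98), the deiodinase that activates thyroid hormone, and Slc1a2 followed Cybrd1 (0.96). Aqp4 followed Glud1 (0.98), a glutamate dehydrogenase. Slc7a11 followed Cyp4f15 (0.96) and Gja1 followed Lfng (0.97), a Notch modifier, and the pair Gja1 and Slc7a11 reached 0.95. Slc7a10 was closest to Ppp1r3g (0.91), a glycogen-targeting phosphatase subunit, Slc6a11 to Ttyh3 (0.89) and Gjb6 to Erbb2 (0.88). Slc6a11, Slc7a10 and Gjb6 thus had looser companions than the other 6 members.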

How the data were processed

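For each sort the authors deposited whole-number counts of every gene in every cell, and a cell table with the mitochondrial fraction; the submitters' processing notes name Cell Ranger 2.1.1, UMI-tools 0.5.4, STAR 2.5.2b, featureCounts of Subread 1.6.2 and the builds mm10 and GRCm38.p6. The mitochondrial fraction, as deposited, was used only to describe libraries. Clusters came from all deposited cells with at least 500 counts: 2000 variable genes without the members, standardised within library, 30 principal components, 20 neighbours and Leiden clustering at resolution 1. A cluster was named where at least 3 markers of a list were 2-fold above the median cluster and 2 stood among its 100 leading genes, a rule set after the clusters were seen. Likely doublets were kept in the main results and left out as an alternative. Counts were summed per library and cell class and tested with edgeR 4.0.16 (TMM, filter on low counts, Benjamini-Hochberg over all genes), with DESeq2 as an alternative; cells were never replicates. The code of the tests was checked on simulated counts with changes planted in well-counted genes. That simulation had a small fixed spread and no library or day effect, so it does not give error rates for these data. Same-numbered D1Tom libraries, which share a preparation day, deviated together (correlation 0.50 over genes, 0.47 in astrocyte-like cells). The text names the 9 members, up to 3 genes of each of the 5 lists with the smallest p, the 3 genes most alike in pattern, and Foxp2; Cldn10 was named after its values were seen. Some genes of the lists are not reported here. Members and lists were chosen with earlier results of these data known.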

Additional observations from a re-analysis of the deposited data

How the results depend on the processing

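Most log2 fold changes of the members in astrocyte-like cells kept their direction and their side of the threshold, but those near 0 did not, and with 2 libraries a group the direction of many genotype effects rests on single libraries. The cause was not tested for any change of sign given here. Depth limits Gjb6 and all GTE shares.

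Of the 8 members tested in the Gfap split, 4 were called, against 1 without the library block, 1 without cluster 9, and 4 to 6 when a library was left out. The 6 came without control 2, where 9 members were tested. The fits that left out a library called 6.48% to 8.44% of all genes tested. In the dividing split the count of members called was 0, and 1 with no filter on low counts. Over the other D1Tom cell types it was 0, against 1 with no filter, 9 with the replicate block and 0 to 11 when a library was left out. Thinning to 1000 counts could not be fitted for the dividing split, where a library then held 1 cell.

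D1Tom replicate numbers mark a shared preparation day, and the block gave Slc1a3 in astrocyte-like cells at 0.0053 in place of -0.0085; it changed no member's call there. Over all genes it called 12 in these cells and 1 over all D1Tom cells, DESeq2 called 4 and 20, and edgeR without the block none. GTE numbers only name libraries (correlation -0.35 over all cells, 0.054 in astrocyte-like cells), and the block moved the GTE count over all cells from 4 genes to 0, the crossed numbers, chosen after seeing the data, to 24.

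In D1Tom astrocyte-like cells the genotype effect of Slc1a3 also turned at clustering resolution 0.5 (0.0092) and 2 (0.0090), with cells chosen by marker counts (0.022) and without cluster 0 (0.156). Without cluster 0, Slc7a10 (0.57) and Gjb6 (0.20) turned, and in cluster 9 only, Slc7a10 (0.18), Slc7a11 (-0.052) and Aqp4 (0.33). In GTE, Aqp4 turned at resolution 2 (0.15), and Slc1a2 (0.12) and Aqp4 (0.072) without cluster 7; cluster-wise alternatives were chosen after seeing the data. In the Gfap split Gja1 stood at -0.0021 with DESeq2, -0.024 with no filter and -0.150 at 1000 counts; without cluster 9 Slc1a2 stood at -0.11 and Slc4a4 at -0.0013, and in cluster 9 only Slc6a11 at 0.021.

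Leaving out a library, which leaves a lone sample assumed to vary like the others, gave, in D1Tom astrocyte-like cells, -0.053 to 0.25 for Slc1a2, -0.23 to 0.24 for Slc1a3, -0.88 to 0.89 for Slc7a10, -0.068 to 0.62 for Slc7a11, -0.019 to 0.20 for Slc4a4, -0.21 to 0.013 for Aqp4 and -1.05 to 0.98 for Gjb6. In GTE it gave -0.52 to 0.53 for Slc1a2, -0.19 to 0.50 for Slc6a11, -0.37 to 0.97 for Slc4a4, -0.43 to 0.29 for Aqp4, -0.23 to 0.66 for Gja1 and -0.19 to 0.53 for Gjb6. In the Gfap split Gja1 ranged from -0.061 to 0.082, and in the dividing split Slc6a11 from -0.37 to 0.033.

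The number of all genes called moved too, although no member was among them in these 4 comparisons. Leaving out a library gave 2 to 134 genes in D1Tom and 0 to 36 in GTE astrocyte-like cells, and 0 to 6 and 1 to 27 over all cells of the sorts. Over all GTE cells DESeq2 called none, the fit with no filter 18 and the fit without likely doublets 1, against 4. In astrocyte-like cells, cluster 9 of D1Tom alone, GTE with no filter and GTE at resolution 2 gave 1 gene each, against none.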
